A study of Mus musculus with 12 samples.

Results

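The resting transcriptome of spleen cells that carry CD11c was described in Bl6 mice on normal chow, the untreated wild-type arm of the study. Members were the 3 arrays whose titles name Bl6 and chow (samples 7, 8 and 9) out of 12 arrays in all. The series sets ApoE-/- against Bl6 mice on chow or a high-cholesterol diet, with 3 arrays in each of 4 groups, and its title concerns apolipoprotein E made by CD11c+ cells in atherosclerosis. All groups share the preparation: spleen cells were caught on magnetic beads coated with antibody to CD11c, received no treatment, and gave total RNA of which 100 ng per sample was amplified and labelled with biotin. Each RNA was hybridised to one Illumina MouseWG-6 v2 bead array, which carries short probes against mouse transcripts. The Bl6 chow mice carried neither the Apoe disruption nor the high-cholesterol diet. Their age, sex and substrain, the number of mice behind each RNA, and whether the 3 samples came from different mice are not stated in the labels, so the spread between arrays may be technical.

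CD11c, the product of Itgax, is the alpha X integrin chain that dendritic cells carry at high density. Dendritic cells sample antigen, load its peptides onto MHC molecules and present them to T cells. In the spleen they comprise type 1 conventional cells, which present antigen from dead cells to CD8 T cells, type 2 conventional cells, which present to CD4 T cells, and plasmacytoid cells, which make type I interferon. Some splenic macrophages, monocytes, natural killer cells and activated lymphocytes also carry CD11c, so a bead fraction can hold them too.

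Signals below are normalised log2 intensities of a gene's brightest probe, and values in a series of 3 stand for samples 7, 8 and 9 in that order. A probe with no signal above background reads slightly above 4, the log2 of the offset of 16 that was added to every corrected intensity. A probe was called detected on an array where the deposited detection p-value was under 0.05. Ranks run from 1, the brightest of 20289 named genes, and a percentile is the share of named genes whose signal was equal or lower. Probes differ in how strongly they respond to their transcript, so ranks order probe signals and not RNA amounts.

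The chow arrays were evenly bright. Median raw signal was 104, 106 and 109 intensity units, and the background mean was 96.7, 98.8 and 101. The median probe thus read 1.07 to 1.08 times the background mean. Between 22740 and 23042 probes per array were detected, inside the 22077 to 23245 of the other 9 arrays. Of 46237 probes, 19008 (41.1%) were detected on all 3 arrays and 18632 (40.3%) on none, while 3140 were detected on 2 arrays and 5457 on 1. By gene, 10589 of 20289 (52.2%) had a probe detected on all 3 arrays and 6120 (30.2%) had no probe detected on any. These shares are the background for every count of list members that follows. Near the threshold the 2 classes lay close together: 222 named probes just inside it had a median of 4.88, and 410 just outside it had a median of 4.41.

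**Figure D1:**
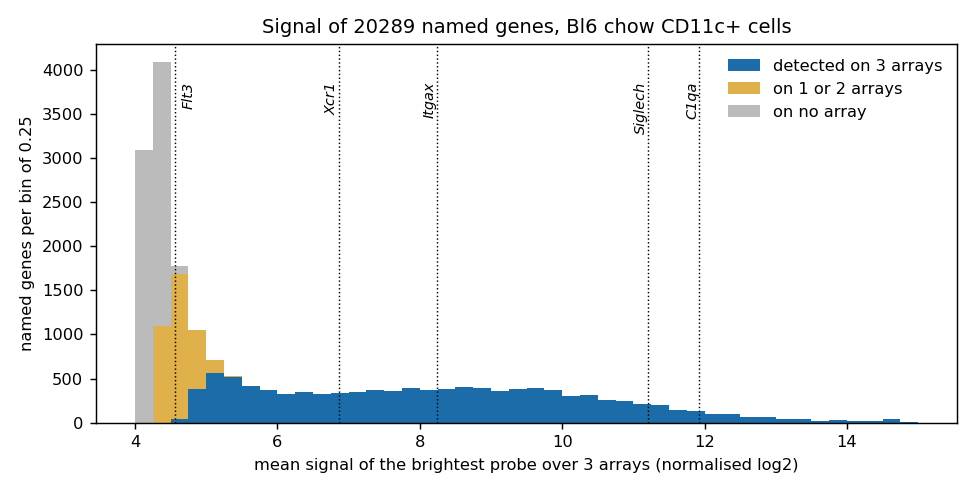
Histogram of the mean signal of 20289 named genes over the 3 Bl6 chow arrays (x axis, normalised log2 of the brightest probe; y axis, number of genes per bin), stacked by the number of arrays on which that probe was detected. Dotted lines mark Flt3, Xcr1, Itgax, Siglech and C1qa, which read 4.57, 6.86, 8.24, 11.20 and 11.92, so that Flt3 stands within the undetected peak near 4 and the other 4 genes within the detected range.

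Of the 5 genes chosen to mark the fraction, Itgax, Xcr1, Siglech and C1qa were detected on all 3 arrays and Flt3 on 1 of them. Itgax, whose protein the beads bind, read 8.32, 8.36 and 8.03 (8.24 ± 0.18, SD, n = 3), at rank 5098 and percentile 74.9. Its arrays lay close together, with sample 9 lowest. Xcr1, the receptor for the chemokine XCL1 on type 1 conventional dendritic cells, read 7.21, 6.55 and 6.82 at percentile 64.9. Siglech, a sialic acid binding lectin of plasmacytoid dendritic cells, read 11.34, 10.84 and 11.43 at percentile 94.7. Both were lowest in sample 8. C1qa, a chain of the complement component C1q that tissue macrophages make, read 11.79, 12.10 and 11.86 at percentile 97.0, and was the brightest of the 5. Flt3, the receptor through which FLT3 ligand drives dendritic cell development, read 4.50, 4.67 and 4.53 at percentile 38.2. Neither of its 2 probes was detected on more than 1 array, so for Flt3 the arrays give only an upper bound and do not bear out the label.

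The remaining core genes of dendritic cells were detected. Of 11 genes on that list, 10 were detected on all 3 arrays (52.2% of all genes), and the list's median percentile was 78.4. Cd83, a surface protein of activated dendritic and B cells, was brightest at 12.12, 12.12 and 11.84. Dpp4, the peptidase CD26, read 11.39, 11.35 and 11.61. Bcl11a, a transcription factor needed for plasmacytoid and B cell development, read 10.87, 11.10 and 10.70. The SD of these 3 genes was at most 0.20. Csf2ra, the alpha chain of the GM-CSF receptor, read 10.43, 9.98 and 10.44. Zbtb46, a transcription factor that marks conventional dendritic cells, spread more widely, at 7.56, 7.19 and 6.69, with sample 7 highest. Csf2rb, the signalling chain of that receptor, was the dimmest detected member at 6.99, 6.33 and 6.11. Its close copy Csf2rb2 read 8.89, 8.38 and 8.85, and how far the probes of the pair read each other's transcript was not tested.

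Of 13 measured type 1 conventional genes, 12 were detected on all 3 arrays, with a median percentile of 76.7. Irf8, which specifies these cells and plasmacytoid cells, read 12.19, 12.17 and 12.07. Id2, a repressor of E proteins, read 11.73, 11.57 and 11.64. Neither spread by more than an SD of 0.08. Ppt1, a lysosomal thioesterase, read 10.93, 10.49 and 10.64, and Cadm1, an adhesion protein, 10.73, 10.80 and 10.52. Batf3, on which the lineage depends, read 10.51, 10.12 and 10.04, and Clec9a, a receptor for filaments of dead cells, read 10.46, 9.53 and 10.16. Batf3 and Clec9a were highest in sample 7, as were 8 of the 12 genes. Naaa, a lysosomal amidase, was dimmest at 5.27, 5.67 and 5.99. Cd8a, one chain of the CD8 coreceptor on T cells and on type 1 dendritic cells of the spleen, was not detected by either of its 2 probes (4.27, 4.14 and 4.20). Its partner chain Cd8b1, counted among T cell genes, read 11.59, 11.37 and 11.96 by the brightest of its 3 probes.

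Sirpa, the receptor for CD47 that type 2 conventional cells share with macrophages, read 14.11, 14.09 and 13.91 and ranked 94th of all named genes. Of 14 type 2 genes, 12 were detected on all 3 arrays, with a median percentile of 80.4. Esam, an adhesion protein of the Notch-dependent subset, read 10.33, 10.15 and 10.10. Relb, a subunit of NF-kappaB, read 10.31, 10.15 and 10.07, and Irf4, a transcription factor of these cells, read 9.76, 9.91 and 9.85. These 3 genes varied with an SD of at most 0.12. Clec4a4, the lectin bound by the antibody 33D1, read 9.21, 8.63 and 9.11 and Cd209a, a DC-SIGN homologue, read 9.03, 8.47 and 9.23, so both were lowest in sample 8. Itgam, the CD11b chain, was the dimmest detected member at 5.02, 4.97 and 5.47. Notch2 was not detected, and Clec12a was detected on 1 array (4.31, 5.29 and 4.50).

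Plasmacytoid genes had the highest median percentile of the 4 dendritic cell lists, 90.6. Of 12 measured genes, 11 were detected on all 3 arrays. Ly6d, a surface protein that B cells share, read 11.69, 12.39 and 12.19. Tcf4, the E protein that maintains plasmacytoid identity, read 11.82, 11.86 and 11.87. Klk1, a kallikrein, read 10.84, 10.86 and 11.33. Ly6d was lowest in sample 7, whereas Tcf4 differed by an SD of 0.03. The nucleic acid sensors were uneven, since the RNA sensor Tlr7 read 10.35, 10.55 and 10.34 while the DNA sensor Tlr9 was dimmest of the detected members at 5.43, 5.37 and 4.78. Ccr9, a homing receptor, was not detected. Of the 14 genes chosen, Cd300c and Runx2 were not named on the array. In bulk RNA, fewer cells of a type and less RNA per cell cannot be told apart, and that holds for every list below.

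**Figure D2:**
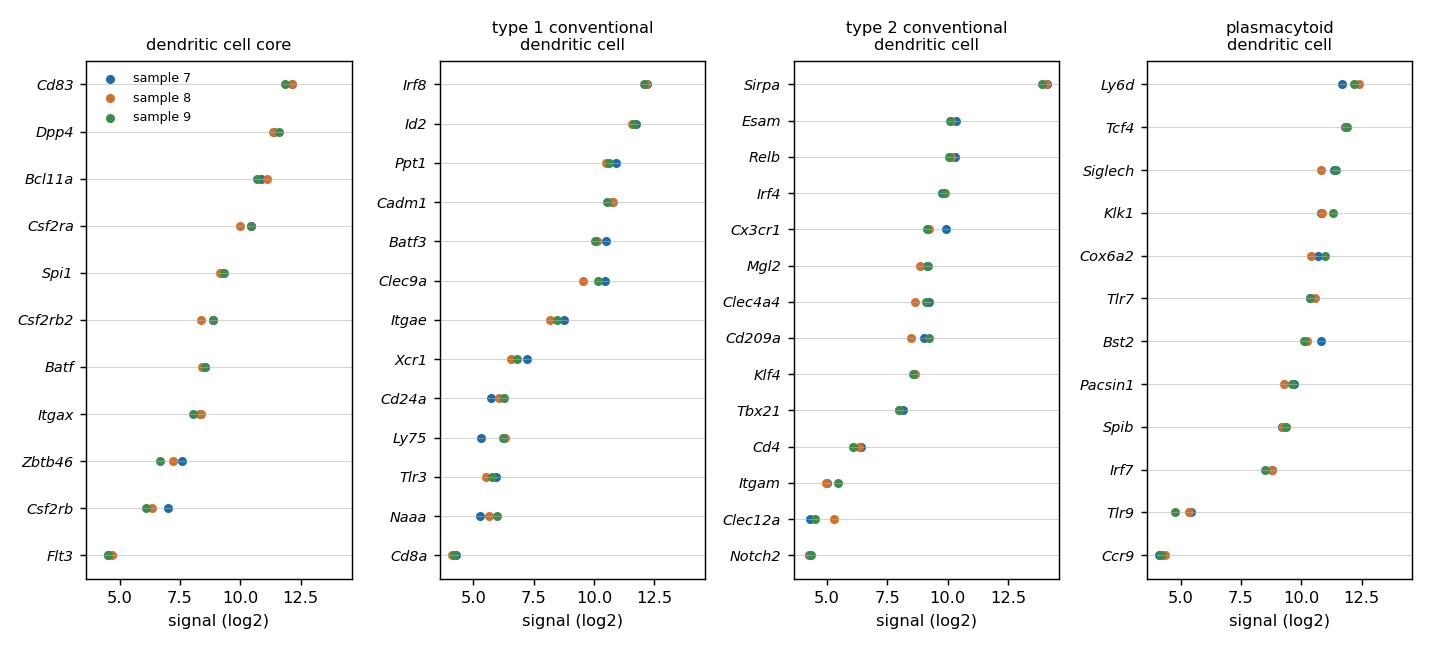
Signal of each measured member of the 4 dendritic cell lists (x axis, normalised log2) in samples 7, 8 and 9 (1 point each), ordered by mean. Flt3, Cd8a, Notch2 and Ccr9 sit at the lower edge near 4, and Sirpa reaches 13.91 to 14.11.

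Genes of MHC class II presentation were among the brightest of the whole transcriptome. Class II molecules carry peptides from endosomes to the surface for CD4 T cells, and their genes share an upstream control region with an X box and a Y box that is bound by RFX and NF-Y and activated through CIITA. Of 15 genes, 13 were detected on all 3 arrays, 12 of them among the 1000 brightest named genes, and the median percentile was 98.1. Because the results turn on these genes, the 200 bases before the start of H2-Aa (chr17:34287824-34288023, minus strand), H2-Eb1 (chr17:34305667-34305866, plus strand), H2-DMb1 (chr17:34152991-34153190, plus), H2-Oa (chr17:34092179-34092378, plus), H2-Ob (chr17:34238705-34238904, plus) and, from class I, B2m (chr2:122147487-122147686, plus) are shown from RefSeq on GRCm38.p6, read in the direction of transcription. Capitals mark every match to the Y box core CCAAT, or ATTGG on the opposite strand, extended to CTGATTGG or its reverse complement where that longer form was present.
H2-Aa: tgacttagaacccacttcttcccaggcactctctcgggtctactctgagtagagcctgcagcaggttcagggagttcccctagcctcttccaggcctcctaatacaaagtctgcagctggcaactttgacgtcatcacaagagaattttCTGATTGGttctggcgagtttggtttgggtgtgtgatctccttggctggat
H2-Eb1: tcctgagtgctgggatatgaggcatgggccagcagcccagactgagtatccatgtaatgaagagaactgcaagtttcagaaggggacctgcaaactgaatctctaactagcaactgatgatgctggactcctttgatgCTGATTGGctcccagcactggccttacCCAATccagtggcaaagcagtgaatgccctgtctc
H2-DMb1: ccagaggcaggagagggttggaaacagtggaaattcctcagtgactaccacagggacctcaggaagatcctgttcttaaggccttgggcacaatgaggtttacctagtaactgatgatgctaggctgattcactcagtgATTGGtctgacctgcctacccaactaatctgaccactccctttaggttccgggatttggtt
H2-Oa: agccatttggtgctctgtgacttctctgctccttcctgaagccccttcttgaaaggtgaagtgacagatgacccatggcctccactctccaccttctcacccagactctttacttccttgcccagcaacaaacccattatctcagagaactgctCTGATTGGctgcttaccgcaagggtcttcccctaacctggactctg
H2-Ob: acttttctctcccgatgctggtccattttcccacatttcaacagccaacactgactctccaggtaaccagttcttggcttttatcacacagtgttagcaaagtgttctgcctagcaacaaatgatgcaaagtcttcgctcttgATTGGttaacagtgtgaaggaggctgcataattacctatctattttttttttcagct
B2m: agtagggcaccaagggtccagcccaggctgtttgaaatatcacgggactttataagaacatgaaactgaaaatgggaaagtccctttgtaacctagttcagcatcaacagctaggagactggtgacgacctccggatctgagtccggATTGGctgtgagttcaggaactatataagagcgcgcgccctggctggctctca
H2-Eb1 held 2 matches, 62 and 35 bases before the start, and the other 5 windows held 1 each, 46 to 61 bases before it. These windows were chosen for a match there. Over all class I and class II windows with a match the distance ran from 11 bases (Psmb9) to 165 (Tapbp), and H2-DMa, Ctss and Ifi30 of class II held none. Among 27025 gene windows of this length, 30.02% held the short motif on either strand and 3.77% the long one, which contains the short one. Of 11 class II genes with a window, 8 held the short and 3 the long form, and of 13 class I genes 9 and 3 did. A match describes the sequence only, and binding was not measured.

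Cd74, the invariant chain that guards the class II groove, read 14.76, 14.72 and 14.81, the brightest of the list and 7th of all genes. H2-Ab1, the beta chain of the I-A molecule, read 14.66, 14.73 and 14.64. H2-Eb1, the beta chain of I-E, read 14.42, 14.40 and 14.41. H2-Aa, the alpha chain of I-A, read 13.98, 14.02 and 14.04. Their SDs ran from 0.01 to 0.05, so the normalised values of these 4 genes were nearly level across the arrays. The exchange factors were lower but still bright. H2-DMa, which helps peptides replace the invariant chain fragment, read 13.23, 13.18 and 13.35, and H2-Oa, which restrains it, read 12.39, 12.43 and 12.56. Of the proteases, Lgmn read 12.29, 12.52 and 12.55 and Ctss, which trims the invariant chain, 11.46, 11.55 and 11.69. Ciita, the coactivator of the class II genes, was the dimmest of the 13 at 11.34, 10.97 and 10.93. Rfx5, a subunit of the X box factor, was detected on 1 array (4.40, 4.37 and 4.84). H2-Ea, the alpha chain of I-E, was not detected (4.36, 4.16 and 4.18); mice of the H-2b haplotype, such as C57BL/6, carry a deletion at its promoter.

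All 15 genes of class I presentation were detected on all 3 arrays, with a median percentile of 97.1. B2m, the light chain, read 14.52, 14.69 and 14.73, with sample 7 lowest. H2-D1, a classical heavy chain, read 13.91, 13.80 and 13.89. H2-T23, which encodes the nonclassical Qa-1 molecule, read 13.33, 12.94 and 13.16, and H2-K1, the other classical chain, averaged 13.14 with an SD of 0.12. Psmb8 and Psmb9, catalytic subunits of the immunoproteasome, averaged 13.08 and 12.78. Tap2, one chain of the peptide transporter, stood out by its spread, at 11.52, 10.65 and 10.46 (SD 0.56), with sample 7 highest, while its partner Tap1 read 9.34, 9.41 and 9.35. Erap1, the aminopeptidase that trims peptides, was dimmest at 5.93, 6.30 and 6.36.

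Macrophage genes ranked above the dendritic cell lists. Of 19 genes, 18 were detected on all 3 arrays and 11 were among the 1000 brightest, and the median percentile was 97.5 against 76.7 to 90.6 for the 4 dendritic cell lists. Slc40a1, the iron exporter ferroportin, read 14.58, 14.61 and 14.61, 39th of all genes. Vcam1, an adhesion protein of red pulp macrophages, read 13.92, 14.16 and 14.05. Axl, a receptor for apoptotic cells, read 13.79, 14.02 and 13.49. Only the last of these 3 spread by more than 0.12. C1qb and C1qc, the partners of C1qa, averaged 13.57 and 13.48. Spic, the transcription factor on which red pulp macrophages depend, read 12.49, 12.71 and 12.64, Hmox1, which breaks down haem, 12.78, 13.21 and 12.92, and Adgre1, the F4/80 antigen, 12.77, 13.05 and 12.84. Each of these 3 genes was highest in sample 8, as were 13 of the 18 detected genes. Marco, a scavenger receptor of marginal zone macrophages, read 9.30, 10.10 and 9.57, Siglec1 6.94, 7.74 and 6.79, and Cd209b 5.96, 6.24 and 6.39. Vsig4, a complement receptor, was the dimmest detected gene at 6.34, 5.98 and 5.57. Cd5l, a secreted protein of red pulp macrophages, was not detected by its single probe (4.15, 4.14 and 4.52).

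Among monocyte genes, 11 of 12 were detected on all 3 arrays, with a median percentile of 80.7. Fcgr4, an Fc receptor of patrolling monocytes and macrophages, read 12.85, 12.98 and 12.70, and Csf1r, the receptor for M-CSF, read 12.68, 12.98 and 12.78. Treml4, a receptor of patrolling monocytes and some macrophages, read 11.01, 11.10 and 11.16, and S100a4, a calcium-binding protein, 10.62, 10.20 and 10.48. Cd14, the lipopolysaccharide coreceptor, read 10.35, 10.73 and 10.16, with sample 8 highest. Ccr2, a chemokine receptor of classical monocytes, read 6.53, 6.03 and 6.67, and Fn1, fibronectin, was the dimmest detected at 4.82, 4.96 and 5.71. Ly6c2 was not named on the array. Neutrophil genes had a lower median percentile, 64.8, and 12 of 16 were detected on all 3 arrays. S100a8 and S100a9, the 2 chains of calprotectin, read 11.98, 12.66 and 12.27 and 10.72, 11.34 and 10.96. Csf3r, the receptor for G-CSF, read 8.41, 9.26 and 8.54, and Mmp9, a gelatinase, 8.35, 8.65 and 8.13. Sample 8 was highest for each of these 4 genes. Mpo, myeloperoxidase of granulocyte precursors, was dimmest and least even at 6.15, 4.98 and 4.42. These values are from its brightest probe, which was detected on 2 arrays, while another of its 4 probes was detected on all 3. The precursor genes Elane and Fcnb and the collagenase Mmp8 were not detected.

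Lymphocyte genes were present throughout. Of 13 measured B cell genes, 12 were detected on all 3 arrays, with a median percentile of 88.8. Ighm, the constant region of IgM, read 14.66, 14.63 and 14.79, 15th of all genes. Cd79b, a signalling chain of the B cell receptor, read 13.08, 13.51 and 13.28, and Fcrla, an Fc receptor-like protein of B cells, 11.89, 12.31 and 12.12. Blk, a kinase of that receptor, read 10.30, 11.30 and 10.86. Sample 7 was lowest for these 3, and for 10 of the 12 genes, while sample 8 was highest for 10. Ebf1, a B lineage transcription factor, was dimmest at 6.64, 7.18 and 7.18, and Pax5, another, was not detected by its single probe. Of 10 measured plasma cell genes, 8 were detected on all 3 arrays, with a median percentile of 67.6. Igkc, the kappa constant region, read 14.84, 14.78 and 14.64, Mzb1, an endoplasmic reticulum chaperone of B, plasma and plasmacytoid cells, 13.20, 12.61 and 12.67, and Xbp1, a transcription factor of secretory cells, 12.68, 12.64 and 12.78. These are also genes of other cells in the fraction. Sdc1 and Prdm1, which mark plasma cells more narrowly, were each detected on 2 arrays, at 4.29, 5.78 and 4.78 and at 4.15, 5.01 and 4.86. Jchain, which joins IgM and IgA, read 5.70, 6.57 and 6.42, and Derl3, of protein quality control, was dimmest at 6.43, 5.63 and 5.85.

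All 13 measured T cell genes were detected on all 3 arrays, with a median percentile of 84.8. Thy1, a surface glycoprotein, read 10.28, 10.37 and 10.78, Cd2, an adhesion receptor, 10.11, 10.22 and 10.42, and Cd3d, a chain of the T cell receptor complex, 9.82, 10.02 and 10.29. All 3 were highest in sample 9. Foxp3, the transcription factor of regulatory T cells, read 9.44, 9.70 and 9.50, and Lef1, a factor of naive T cells, was dimmest at 5.52, 5.24 and 5.17. Of 13 natural killer genes, 11 were detected on all 3 arrays, with a median percentile of 73.9. Klrd1, the CD94 receptor chain, read 11.96, 11.88 and 12.18. Nkg7, a cytotoxic granule protein, read 11.15, 11.29 and 11.64, and Prf1, perforin, 9.80, 10.22 and 10.28. Klre1, a lectin-like receptor, read 9.77, 10.09 and 10.42. Sample 9 was highest for these 4 and for 10 of the 11 detected genes. Ncr1, the receptor NKp46, was dimmest at 6.17, 6.32 and 6.38, and Gzmb was not detected by its single probe.

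Haemoglobin was bright although red cells carry no CD11c. Hbb-b1, a beta globin, read 14.91, 14.91 and 14.55, 4th of all genes, and Hba-a1, an alpha globin, 14.59, 14.74 and 14.25, both lowest in sample 9. Slc4a1, the anion exchanger of the red cell membrane, read 11.15, 10.70 and 9.86, and Alas2, the erythroid enzyme that begins haem synthesis, 10.12, 9.35 and 8.21. For both, sample 7 was highest and sample 9 lowest. Of 13 measured red cell genes, 9 were detected on all 3 arrays, with a median percentile of 61.9. Ermap, an erythroid membrane protein, was dimmest at 5.12, 5.40 and 4.86. Gata1, the erythroid transcription factor, and Epb42, of the membrane skeleton, were not detected. How much globin RNA came from red cells caught on the column was not tested.

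Of 8 platelet genes, 5 (62.5%) were detected on all 3 arrays against 52.2% of all genes, with a median percentile of 51.8. Vwf, von Willebrand factor, which endothelium also makes, led at 8.74, 8.58 and 8.31, Pf4, platelet factor 4, read 5.67, 6.46 and 6.48, and Itgb3, a chain of the fibrinogen receptor, was dimmest at 4.88, 4.89 and 4.92. Gp1bb, a chain of the von Willebrand factor receptor, was not detected. Of 9 basophil and mast cell genes, 3 were detected on all 3 arrays. Kit, the stem cell factor receptor, was far above the others at 11.75, 11.31 and 11.30, Cma1, mast cell chymase, read 5.64, 6.63 and 6.41, and Fcer1a, the IgE receptor alpha chain, 5.06, 5.14 and 5.19. The proteases Mcpt8 and Tpsb2, which define basophils and mast cells, and the transcription factor Gata2 were not detected. Of 5 eosinophil genes, Ccr3, an eotaxin receptor, read 8.65, 8.83 and 8.90, Prg2, the major basic protein, 8.52, 8.40 and 8.77, and Il5ra 5.81, 6.29 and 5.91, whereas Epx and Siglecf were not detected. Of 13 stromal and endothelial genes, 5 were detected on all 3 arrays and 5 on none. Stab2, a scavenger receptor of sinusoidal endothelium, read 9.92, 10.05 and 9.82, and Pecam1, which leukocytes also carry, 9.21, 9.24 and 8.84. The chemokine Ccl19, made by stromal cells of the T zone, read 6.76, 6.36 and 6.97, and Cxcl13, of follicles, was dimmest at 5.83, 6.39 and 5.99. Fibroblast collagens Col1a1, Col1a2 and Col3a1, the pericyte receptor Pdgfrb and the lymphatic receptor Lyve1 were all without a detected probe.

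**Figure D3:**
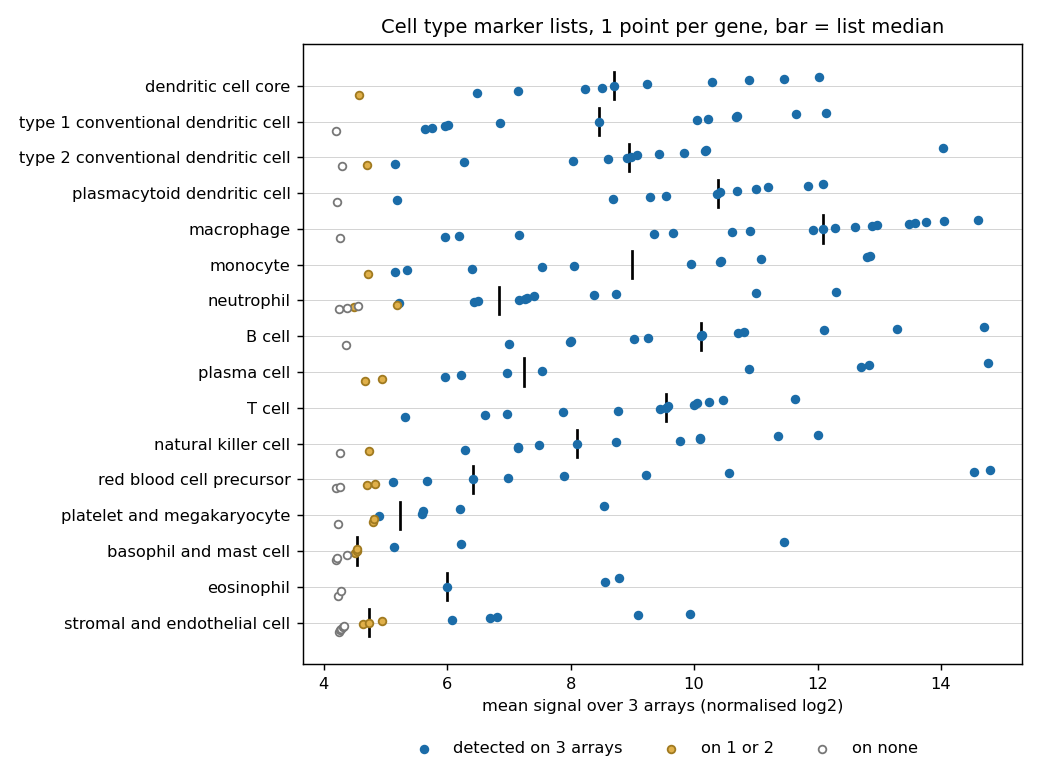
Mean signal over the 3 arrays (x axis, normalised log2) of each measured gene of 16 cell type lists (1 point per gene, coloured by the number of arrays on which its brightest probe was detected), with a vertical bar at each list's median. The macrophage bar stands farthest right at 12.09, the dendritic cell bars at 8.47 to 10.39, and the basophil and stromal bars below 5.

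Of 16 genes of maturation and costimulation, 10 (62.5%) were detected on all 3 arrays, against 52.2% of all genes, with a median percentile of 73.6. Cd86, a ligand of CD28, read 12.38, 12.43 and 12.22, Cd274, which encodes PD-L1, 11.14, 11.17 and 10.84, and Cd40, the receptor for T cell help, 11.13, 11.11 and 10.90. Fscn1, an actin bundler of mature dendritic cells, read 10.89, 10.78 and 10.19. Sample 9 was lowest for these 4 and for 8 of the 10 detected genes. Ccr7, the receptor that guides mature cells to the T zone, read 9.37, 9.37 and 9.02. Cd80, the other CD28 ligand, was less even at 8.61, 7.58 and 7.97, and Pdcd1lg2, which encodes PD-L2, was dimmest at 6.23, 6.02 and 6.37. The chemokines Ccl17 and Ccl22 were each detected on 1 array, and Il12b, the shared subunit of interleukins 12 and 23, on none (4.20, 4.11 and 4.20).

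All 15 genes of Toll-like receptor sensing were detected on all 3 arrays, with a median percentile of 82.6. Unc93b1, which carries the nucleic acid sensors to endosomes, read 12.54, 12.64 and 12.55, and Myd88, the shared adaptor, 12.24, 12.26 and 12.34. Of the receptors, Tlr2, which senses bacterial lipoproteins, read 10.53, 10.63 and 10.40, and Tlr13, which senses bacterial ribosomal RNA, 10.25, 10.10 and 10.21. Among these 15 genes the flagellin receptor Tlr5 was dimmest at 5.96, 6.69 and 6.09, with sample 8 highest. Tlr3, Tlr7 and Tlr9 were counted in the dendritic cell lists instead, and Tlr3 and Tlr9 were dimmer, averaging 5.75 and 5.19. Tlr4, the lipopolysaccharide receptor, read 9.28, 9.35 and 9.13 and its partner Ly96 10.39, 10.69 and 10.69. Tlr11 and Tlr12, which in mice sense profilin of protozoa, read 8.68, 7.92 and 8.16 and 6.67, 6.35 and 6.14, both highest in sample 7. Of 14 lectin and Fc receptor genes, 12 were detected on all 3 arrays, with a median percentile of 88.1. Fcer1g, the signalling chain of Fc receptors, read 14.25, 14.30 and 14.42, Lgals3, galectin-3, 13.38, 13.61 and 13.57, and Fcgrt, the neonatal Fc receptor, 12.59, 12.93 and 12.76. Clec4n, Dectin-2 for fungal mannans, read 12.42, 12.79 and 12.37, and Clec4e, Mincle, was dimmest at 6.28, 6.39 and 6.98. Clec4a2 and the oxidised LDL receptor Olr1 were not detected.

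Among cytokines, 16 of 20 genes were detected on all 3 arrays, with a median percentile of 65.3. Ltb, lymphotoxin beta, read 11.43, 11.23 and 11.38, Il18 11.17, 11.35 and 11.47, and Il1b 11.07, 11.45 and 11.08. Tgfb1 read 10.69, 11.15 and 11.02. The first of these 4 varied least (SD 0.10), and Il1b and Tgfb1 were highest in sample 8. Il15, which sustains natural killer and memory T cells, read 9.64, 9.34 and 9.45. Tnf read 7.62, 7.85 and 8.22, and Il10, which dampens inflammation, was dimmest of the detected genes at 5.25, 4.96 and 4.46. Il6 was detected on 1 array (4.24, 5.08 and 4.27), and Il23a and Ifnb1 on none. Of 16 chemokine genes, 13 were detected on all 3 arrays, with a median percentile of 68.3. Ccl5, a chemokine made by T cells, natural killer cells and dendritic cells, read 13.72, 13.69 and 13.86. Cxcl9, an interferon-gamma target, read 11.52, 11.37 and 11.54, and Ccl4 11.06, 11.09 and 11.25. Cxcl16, a membrane-bound chemokine, read 10.27, 10.11 and 10.07. Sample 9 was highest for the first 3 of these. Ccl7 was dimmest at 4.87, 4.80 and 4.91, and the monocyte chemokine Ccl2 (4.11, 4.11 and 4.16) and Cxcl14 were not detected.

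Of 14 measured genes on the list of chemokine and related receptors, 7 (50%) were detected on all 3 arrays, against 52.2% of all genes. The other 7 were detected on none, against 30.2% of all genes. Other chemokine receptors, such as Ccr2, Ccr3, Ccr7, Ccr9, Cx3cr1 and Xcr1, were counted in the cell type and maturation lists, so the split describes this list only. Cxcr5, the follicle homing receptor of B cells, read 10.21, 11.21 and 10.80, lowest in sample 7 like the B cell genes. Ccr6 read 10.53, 10.60 and 10.24, and Gpr183, the oxysterol receptor that positions type 2 dendritic cells and B cells, 10.41, 10.26 and 10.23. Cxcr4, the CXCL12 receptor, read 9.93, 10.12 and 10.23, and Cxcr6, the CXCL16 receptor, was dimmest at 5.87, 5.78 and 5.80. Ackr3, Ccr1, Ccr4, Ccr8, Ccr10, Cmklr1 and the sphingosine phosphate receptor S1pr1 each had a single probe, which was detected on no array.

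Genes of lipoprotein and cholesterol handling bear on the question of the series. Of 19 measured genes, 14 were detected on all 3 arrays and 5 on none, with a median percentile of 78.5. Apoe, the gene disrupted in the study's other genotype, ranked 462nd at percentile 97.7 and varied with an SD of 0.07. Lipa, the lysosomal lipase that frees cholesterol from its esters, read 12.42, 12.73 and 12.25. Nr1h3, the oxysterol receptor LXR alpha, read 11.70, 12.31 and 11.53. Npc1, which exports cholesterol from lysosomes, read 11.49, 11.77 and 11.72. Lipa and Nr1h3 were highest in sample 8 and lowest in sample 9. Scarb1, the HDL receptor, was the dimmest detected gene at 5.74, 5.68 and 5.55. The scavenger receptors Cd36 (4.29, 4.44 and 4.28) and Msr1 (4.20, 4.15 and 4.24), the cholesterol exporter Abca1 (4.24, 4.15 and 4.16), the second LXR Nr1h2 and the plasma enzyme Lcat were not detected. For the first 4 of these the statement rests on 1 probe each.

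Lineage transcription factors were spread over the range, with 10 of 15 detected on all 3 arrays and a median percentile of 66.3. Cebpb, of monocytes and macrophages, read 11.87, 12.04 and 12.10, Stat3 11.77, 11.30 and 10.90, Ikzf1, of lymphoid cells, 10.75, 10.75 and 10.88, and Pparg, a lipid-activated receptor of macrophages, 10.19, 10.41 and 10.32. Of these 4, Stat3 was least even (SD 0.44), with sample 7 highest, and Zeb2, also detected, was less even still at 10.47, 10.62 and 9.67 (SD 0.52). Maf, of macrophages and T cells, was the dimmest detected at 6.00, 5.95 and 5.55, and Cebpe, of granulocyte precursors, was not detected. Genes of dividing cells were detected for 14 of 17, with a median percentile of 78.2. Mcm5, of the replication helicase, read 11.23, 10.92 and 10.83, and Birc5, survivin, 9.90, 9.14 and 9.56. Cdc20, an activator of mitotic protein degradation, read 9.83, 9.09 and 9.01, and Tk1, thymidine kinase, 9.16, 9.17 and 9.11. Sample 7 was highest for 13 of the 14 genes, Tk1 being the exception. Aurka, a mitotic kinase, was dimmest at 7.57, 7.39 and 7.54, and Ccnb2 and Bub1 were not detected.

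Immediate early genes, which respond within minutes to handling or stimulation, were detected on all 3 arrays for 12 of 16, with a median percentile of 64.1. Zfp36, which destabilises cytokine RNAs, read 11.30, 11.42 and 11.18, Dusp1, a phosphatase of MAP kinases, 10.76, 10.90 and 10.88, and Junb 10.77, 10.48 and 10.45. Egr1 read 10.30, 10.69 and 10.40. Fos, in contrast, averaged 8.09 and Jun 6.58, Ier2 was dimmest at 4.92, 4.88 and 4.98, and Nr4a1 was not detected (4.10, 4.19 and 4.10). Housekeeping genes had a median percentile of 98.5, with 13 of 14 detected on all 3 arrays. Eef1a1, Fth1, Actb and Ppia averaged 14.82, 14.75, 14.51 and 14.50, and the most even of them was the ferritin heavy chain Fth1 (SD 0.01). Tpt1, an abundant translation-associated protein, nevertheless read 6.81, 7.09 and 7.13, and Sdha was detected on 1 array (4.18, 4.55 and 4.44). Both are genes that most cells use.

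The brightest genes of all served translation, antigen presentation, iron handling and immunoglobulin. With predicted models passed over, the 30 brightest spanned 14.60 to 14.87, and Rps12, a small-subunit ribosomal protein, led at 14.80, 14.93 and 14.90. Ribosomal proteins supplied Rps2, Rps7, Rps9, Rps14, Rps19, Rps21, Rps24 and Rps29 of the small subunit and Rpl9, Rpl10a, Rpl27, Rpl37, Rpl38, Rpl41 and Rplp1 of the large one, with the pseudogene Rpl27-ps1. Translation was joined by the elongation factor Eef1a1. Immune genes were Cd74, H2-Ab1, B2m, Ighm, Igkc, the lambda variable segment Iglv1 (14.57, 14.71 and 14.58) and Laptm5, a lysosomal protein of leukocytes (14.63, 14.73 and 14.57). The rest were Hbb-b1, Fth1, Slc40a1, the ubiquitin pseudogene Ubb-ps, and Itm2b, a membrane protein (14.65, 14.64 and 14.68). Among the 100 brightest named genes, 30 encoded ribosomal proteins, 19 were predicted models or clone names and 10 had pseudogene symbols, whose probes may read the parent gene. The 100 brightest genes of each array shared 90 genes.

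Genes of other organs gave the undetected end. Of 21 measured genes specific to liver, muscle, pancreas, pituitary, skin, kidney, lung, brain or testis, 15 had no probe detected on any array (30.2% of all genes), and 1 was detected on all 3 arrays. That gene was Gh, growth hormone, at 4.56, 5.09 and 5.18, just above the threshold. Alb, albumin of liver, read 4.21, 4.13 and 4.20, Ins2, insulin, 4.30, 4.16 and 4.18, and Myh6, heart myosin, 4.20, 4.20 and 4.17. Sensory receptors behaved alike. Of 1087 olfactory receptor genes, 41 (3.77%) were detected on all 3 arrays and 71.6% on none. Of 180 vomeronasal receptor genes, 9 (5.0%) were detected, and of 35 taste receptor genes 0 were, with 77.1% on no array. The brightest olfactory receptor, Olfr724, read 5.81, 6.20 and 5.98, with sample 8 highest. Keratins were detected for 8 of 53 genes, led by Krt10 at 7.47, 7.42 and 8.01. Hox genes were detected for 8 of 40, led by Hoxa7 (7.77, 7.36 and 7.61) and Hoxb4 (7.32, 7.07 and 7.14), while the family's median percentile was 34.7. At the other end, 93.4% of 76 mitochondrial ribosomal protein genes, 88.8% of 98 respiratory chain genes and 87.5% of 48 proteasome genes were detected on all 3 arrays. So were 87.5% of 72 genes with symbols of the ribosomal protein form. Families were drawn by symbol alone, and the ribosomal rule also admits kinase symbols beginning Rps6k, so its share is not one of ribosomal proteins only. By chromosome, the detected share ran from 9.09% of 22 genes on Y and 39.7% of 802 on X to 58.6% of 1165 on chromosome 5. Chromosome 7, on which 1795 genes were measured, stood at 46.0%.

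The labels do not give the sex of the mice. Xist, which silences one X chromosome in female cells, read 10.66, 10.88 and 10.36. The Y-linked Kdm5d and Eif2s3y were not detected by any of 2 probes each. Uty, also on Y, was detected on all 3 arrays by the brightest of 4 probes, at 5.16, 5.89 and 4.91. Its raw signals were 116, 140 and 115, where the dimmest detected probe of each array read 101, 103 and 105. Genes known to be damaged in C57BL/6 substrains were also read, where the substrain itself is not given. Mx1, an antiviral GTPase whose gene lacks exons in many laboratory strains, read 6.77, 6.72 and 6.85. Nnt, the mitochondrial transhydrogenase that lacks exons in C57BL/6J, was detected on 2 arrays by the brightest of its 7 probes (4.73, 5.07 and 4.34). Pla2g2a, a secreted phospholipase with a frameshift in C57BL/6, was not detected, nor was H2-Ea.

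The 3 arrays agreed closely in signal, and less so where signal was low. The median SD between arrays over the 19008 detected probes was 0.184 on the log2 scale, against 0.106 without background correction and 0.111 in the deposited log2 values. It decreased from 0.26 for probes averaging 4 to 6 to 0.09 for those above 12. Normalised values thus lay closer together in bright genes. Quantile normalisation gives every array the same set of values, and its part in these small SDs was not tested. Fth1, for example, had raw signals of 25010, 26800 and 27628 but a normalised SD of 0.0064. Pairs of arrays differed with an SD of 0.392 (samples 7 and 8), 0.387 (7 and 9) and 0.336 (8 and 9), with Pearson correlations of 0.985 to 0.989 across probes, which are not independent replicates. An SD of at least 0.5 was found for 885 probes (4.66%), and the array farthest from the other 2 was sample 7 for 453, sample 8 for 209 and sample 9 for 223.

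The widest spreads among genes averaging at least 8 belonged to immunoglobulin variable segments. Igkv3-4 read 10.85, 8.36 and 11.29 (SD 1.58), Igkv4-62 13.69, 10.90 and 12.19, and Igkv3-2 10.38, 8.14 and 8.63. All 3 were lowest in sample 8. The heavy chain segments Ighv1-62-3 (8.80, 8.55 and 9.95) and Ighv8-9 (8.34, 7.27 and 8.61) were also lowest in sample 8, with sample 9 highest. Each B cell clone uses one light and one heavy variable segment, and close copies among segments may share probes. Sample 7 was highest for Chst1, a sulfotransferase (9.44, 7.32 and 7.81), Alas2, Pigt, of GPI anchor assembly (10.76, 9.45 and 9.17), Ap2b1, of clathrin adaptors (10.63, 9.34 and 9.15), and Papola, a poly(A) polymerase (9.57, 8.13 and 8.26). Fah, of tyrosine breakdown (9.30, 8.07 and 8.06), Zbtb32, a transcription repressor (8.92, 7.74 and 7.77), and Tent5c, a poly(A) polymerase of B and plasma cells (9.09, 7.77 and 8.27), were also highest there. Sample 7 was lowest for Cr2, complement receptor 2 of B cells (7.03, 8.78 and 8.23), and for Ell3, an elongation factor of RNA polymerase II (8.21, 9.59 and 9.32). Among the 1000 brightest genes the smallest spread after quantile normalisation belonged to Slc25a3, the mitochondrial phosphate carrier (12.21 on each array). Next came Fth1, Imp3, H2-Eb1, Rpl26, Sumo2, Psmb10, Lars, Emc10 and Ndufs6, and the SDs of all these genes ran from 0.0041 to 0.014.

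**Figure D4:**
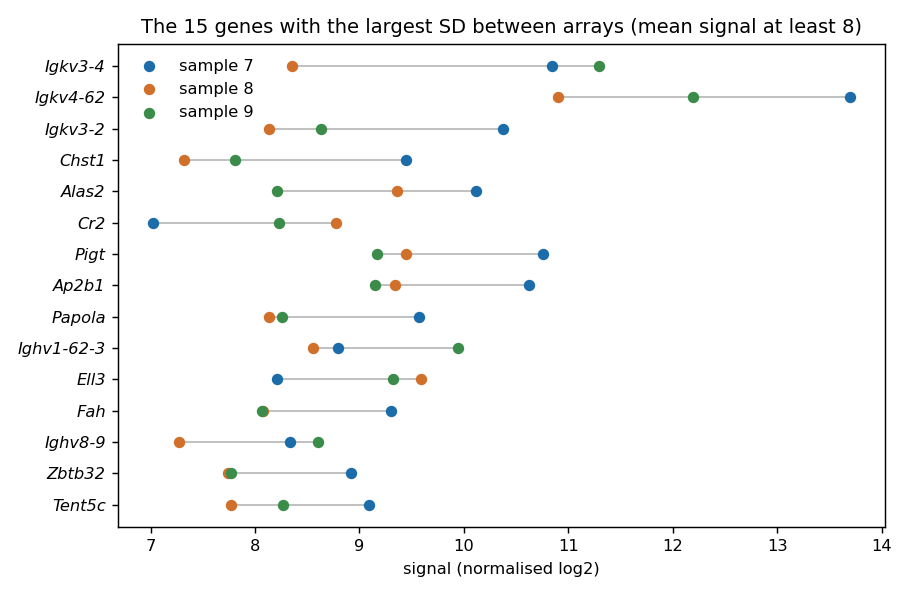
Signal (x axis, normalised log2) in samples 7, 8 and 9 of the 15 genes with the largest SD between arrays among detected genes averaging at least 8, with a grey line from the lowest to the highest array. Igkv3-4 spans 8.36 to 11.29, and sample 7 is the highest point for 10 of the 15 genes.

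Gene lists departed from the mean of the 3 arrays together. Over 10568 detected genes the median departure was -0.01 for sample 7, 0.01 for sample 8 and -0.004 for sample 9, and sample 7 was the highest array for 33.2% of genes, sample 8 for 36.0% and sample 9 for 30.8%. B cell genes departed by -0.38, 0.22 and 0.08, and sample 7 was lowest for 10 of 12. Cell cycle genes departed by 0.38, -0.23 and -0.08, with sample 7 highest for 13 of 14. So in sample 7 the B cell list was low where the cell cycle list was high. Neutrophil genes departed by -0.09, 0.29 and -0.20, natural killer genes by -0.14, -0.09 and 0.21, and red cell genes by 0.06, 0.12 and -0.24. Macrophage genes departed by -0.12, 0.09 and -0.05. The 4 dendritic cell lists departed by no more than 0.13 on any array, as did the macrophage, T cell, monocyte and plasma cell lists, among others, and the housekeeping list by no more than 0.03. These departures are descriptions of 3 arrays, with no group to compare, and the part that cell composition had in them was not tested.

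**Figure D5:**
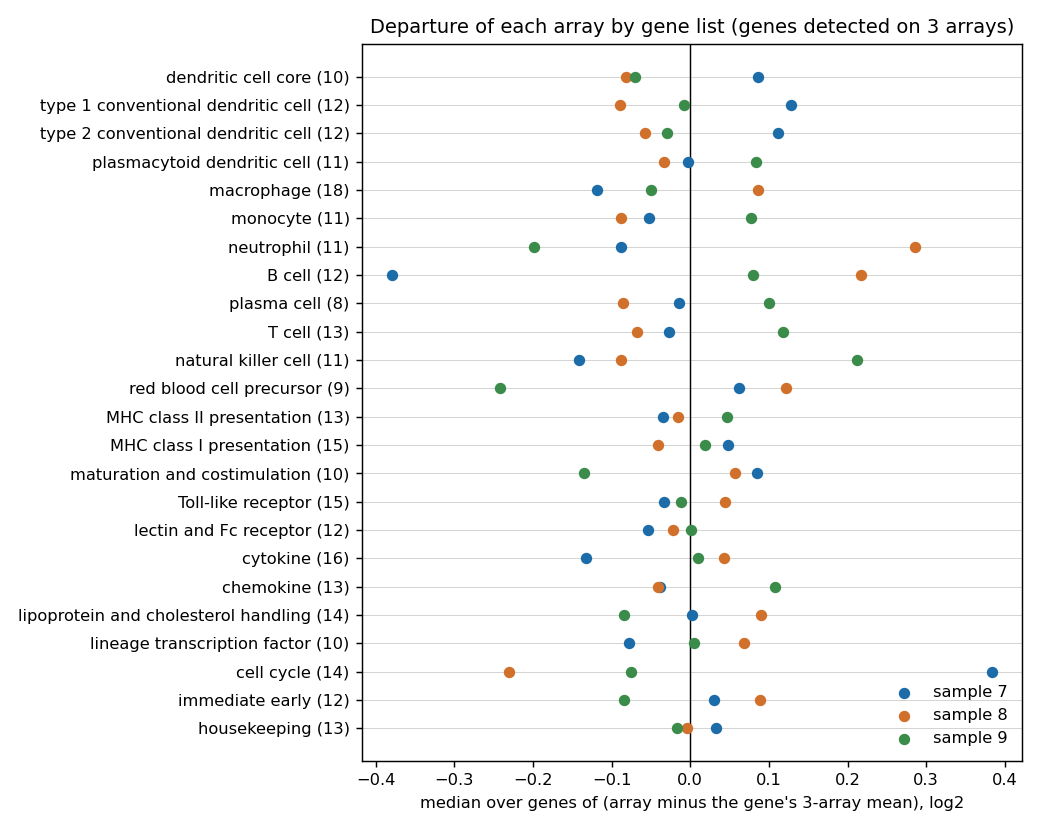
Median departure of each array from the gene's mean over the 3 arrays (x axis, log2) for each list with at least 8 detected genes, the number of genes in parentheses. Samples 7, 8 and 9 stand at -0.38, 0.22 and 0.08 for B cell genes and at 0.38, -0.23 and -0.08 for cell cycle genes, against near 0 for housekeeping genes.

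A gene's place depended on which of its probes was read. Of 9180 genes with more than 1 probe, 2486 (27.1%) had a probe detected on all 3 arrays and another detected on none. Because an undetected probe reads near 4, the widest gaps necessarily fell on very bright genes that also had such a probe. Rps24 averaged 14.73 by its brightest probe and 4.22 by its dimmest, Eef1a1 14.82 and 4.35, B2m 14.65 and 4.19, Rpl37 14.69 and 4.24, and Itm2b 14.66 and 4.29. The bright and dim probes of Eef1a1 are assigned to different transcript records, so they may not read the same RNA. A gene reported as not detected was therefore below the threshold only at the probes named for it, and genes with a single probe, such as Cd5l, Pax5 and Abca1, had no second reading.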

How the data were processed

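Per the file headers, one deposited table gives a linear intensity for each of 46237 probes on each array, with a detection p-value beside it, made by the authors without background subtraction or scaling between arrays as far as the values show. A second table deposited by the authors holds log2 values, which for the Bl6 arrays equal the log2 of the same intensities plus a constant per array of 0.0797 to 0.204 for samples 7 to 9. For ApoE-/- arrays the diet names are exchanged between both tables, and those arrays were not compared here. Which scanner software was used is not given in the sources used.

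Intensities were corrected in R 4.3.3 with limma 3.58.1 by normexp, taking each array's background from its detection p-values, adding an offset of 16, and then quantile-normalising all 12 arrays on the log2 scale. Summaries used Python 3.11.15 with pandas 2.3.3. Detection means a deposited p-value under 0.05. The number of arrays, 3, limits the precision of every level. No group comparison was made, so there is no test.

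The platform's probe list gave 35784 probes a single symbol and 10453 none. For 3280 probes the GRCm38.p6 gene table changed the symbol; probes were matched to it by gene number (28620 probes), symbol (4471) or transcript (2637), with 56 unmatched, giving 20289 genes. A gene was read by its brightest probe and called undetected only if all its probes were.

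The 32 gene lists hold 467 entries, and they and the members were chosen with earlier results of these data known. Genes were named by rule: the 5 markers, the 30 brightest, up to 4 brightest and the dimmest detected member of each list with its undetected members, the 15 widest and 10 smallest spreads, the 5 widest probe gaps, and sex-linked or damaged genes. Further list members are printed that were picked with their values in view. Only the measures of spread, rank and detection were first tested on simulated data. Promoter windows came from RefSeq, with one for 24 of 30 class I and class II genes. Alternatives were a detection threshold of 0.01, no background correction, normalisation of the 3 arrays alone, the deposited log2 values, other rules for a gene's probes, and leaving out each array in turn.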

Additional observations from a re-analysis of the deposited data

Results flagged for a closer look

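Probes with no gene in the platform's list stood outside every gene count of the report. Of 10453 such probes, 2836 (27.1%) were detected on all 3 Bl6 chow arrays, and 5232 on none, against 16172 named probes detected on all 3. What these probes read is not named here, and their part in the fraction's transcriptome was not tested.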

How the results depend on the processing

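Of 55 values recomputed under the alternatives, 49 stayed within their spread or within 1.5 times the main value and 6 moved. Requiring every probe of a gene to be detected, rather than its best one, left 6978 genes detected on all 3 arrays instead of 10589, by the construction of the stricter rule. Taking the mean of each gene's probes moved the percentile of Xcr1 to 73.2, of Siglech to 85.1 and of C1qa to 98.2. That of Flt3 went to 41.7. Xcr1 and C1qa have 1 probe each, so their own signals were unchanged and their percentiles moved only because other genes' values did. A detection threshold of 0.01 gave 17334 probes on all 3 arrays and 22676 on none, and 9846 and 7793 genes. Leaving out 1 array gave 20026 to 20082 probes detected on both others and 20272 to 20544 on neither, with 11009 to 11057 and 6783 to 6873 genes. The median SD was 0.106 without background correction and 0.111 in the deposited log2 values, against 0.184. Both keep the background in the signal, and the deposited values are also not quantile-normalised. The cause of the smaller SDs was not tested. The median SD was 0.182 with the 3 arrays normalised alone, 0.149 over all probes and 0.137 to 0.153 with 1 array left out. The 100 brightest genes shared 90 under each normalisation and 91 to 94 with 1 array left out. No paired analysis was possible because no groups were compared and the running sample numbers are shared by no groups. Signal close to background limits all calls near the threshold, and 290 detected and 554 undetected probes lay within 0.01 of it.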

Other observations

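Gene families defined by their symbols, some of whose members also stand on the lists, differed in how many members were detected. Immunoglobulin genes were detected on all 3 arrays for 26 of 28, tetraspanins for 20 of 26 and histones for 50 of 78, 16 of them among the 1000 brightest genes. Solute carriers matched the background, with 188 of 360 (52.2%). Potassium channel genes were detected for 20 of 90, cytochrome P450 genes for 16 of 87, collagens for 9 of 44 and protocadherins for 3 of 66. Among genes with symbols beginning Crya, Cryb or Cryg, 7 of 19 were detected. The detected ones included Crybg1, Crybg2 and Crybg3, so the count is not one of lens crystallins. Crybg1 led at 8.14, 8.77 and 8.96, followed by Cryba4 at 7.87, 7.37 and 7.46 in samples 7, 8 and 9. These families were looked at after the values were seen, and no test was made.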
